A study of Rattus norvegicus with 39 samples.

Results

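The libraries described here are the 10 immunoprecipitated (IP) libraries from diestrus D2-Cre female rats, 5 treated repeatedly with ketamine and 5 with saline, out of 39 libraries in the series. They were chosen by their sample titles alone. D2-Cre denotes heterozygous (Het) transgenic rats that express Cre recombinase under Drd2 control, and the nucleus accumbens (NAc) of each rat received a viral vector carrying a Cre-dependent, HA-tagged copy of the ribosomal protein Rpl22 (RiboTag). Precipitation of the tag isolates mRNA bound to polyribosomes in the Cre-expressing neurons, and each library came from the tissue punches of 1 rat. All 10 rats were adult females, their exact age is not given in the sources used here, and each group drew on several litters. They received 6 injections in diestrus, of 10 mg/kg ketamine or of saline, and were killed 4 days after the last one, 30 min after being returned to the testing context without drug. The ketamine rats used for sequencing were selected for an increase in locomotor activity over treatment, so they are not a random sample of treated rats. Library numbers are those given in the labels: 8, 16, 24, 32 and 40 for ketamine and 7, 15, 23, 31 and 39 for saline.

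Medium spiny neurons (MSNs) are the GABAergic projection neurons of the NAc and divide into those with the D1 and those with the D2 dopamine receptor. D2-MSNs carry an adenosine receptor, encoded by Adora2a, beside the D2 receptor, and both act in opposite directions on the adenylyl cyclase Adcy5. Ketamine is an antagonist of the NMDA class of glutamate receptors, and its effects on neurons have been tied to glutamate transmission, to translation through the mTOR pathway and to dopamine. Diestrus is a stage of the estrous cycle with low estradiol, and proestrus is the stage at which estradiol peaks.

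Total counts ranged from 16175294 to 23533750 in the 5 ketamine libraries and from 21011366 to 22271752 in 4 saline libraries, while the saline library 39 held 2396517. A single count in library 39 was worth 0.412 CPM (counts scaled to a common library size), against 0.0426 to 0.0608 CPM in the other 9. The count table holds Ensembl identifiers. Of the 13455 genes that passed the filter on low counts, 1528 could be paired with a symbol, so most of the genes tested cannot be named here. Levels are CPM normalized by TMM, a scaling that assumes most genes do not differ, and they are not adjusted for gene length.

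The label was checked first. The panel of D2-MSN markers could be read only through Adora2a, since the other members, Drd2 among them, could not be paired with an identifier. Adora2a was at 807.9 to 1014.8 CPM in the 5 saline libraries and at 457.0, 769.0, 926.9, 948.9 and 1006.6 CPM in the ketamine libraries 32, 16, 8, 40 and 24. All 10 values lay above the 19 D1-Cre libraries used here, in which Adora2a ranged from 140.5 to 222.3 CPM. The ketamine library 32 had the lowest level of any D2 library.

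A wider set of cell type genes was then taken from the proestrus saline libraries, which share no animal with the diestrus ones. There, 40 of 13397 genes (0.299%) were at least 2-fold higher in D2 than in D1 libraries at an adjusted p under 0.1 in edgeR's quasi-likelihood test, and 72 (0.537%) were at least 2-fold higher in D1 libraries. Of these, 17 D2-biased and 37 D1-biased genes had a mean of at least 5 CPM there and were tested in the diestrus D2 libraries. For each library the median of their log2(CPM + 0.5) was taken relative to the mean of the diestrus D2 saline libraries. For the D2-biased genes it was 0.07, -0.02, 0.11, 0.08 and -0.22 in saline libraries 7, 15, 23, 31 and 39. In ketamine libraries 8, 16, 24, 32 and 40 it was -0.19, -0.27, 0.09, -0.76 and 0.09. Library 32 thus lay between the other diestrus D2 libraries and the diestrus D1 libraries, which spanned -1.52 to -1.26. In it 15 of the 17 genes were below the saline mean, and 12 had their lowest level of the 10 libraries. The D1-biased genes stood at 0.25 in library 32, the highest of the 10, where the other 9 ranged from -0.16 to 0.15 and the diestrus D1 libraries from 1.51 to 1.82. Without library 32, the ketamine libraries ranged from -0.27 to 0.09 for the D2-biased genes. In IP libraries, fewer tagged cells, less RNA per cell and more mRNA from other cells cannot be told apart.

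**Figure D1:**
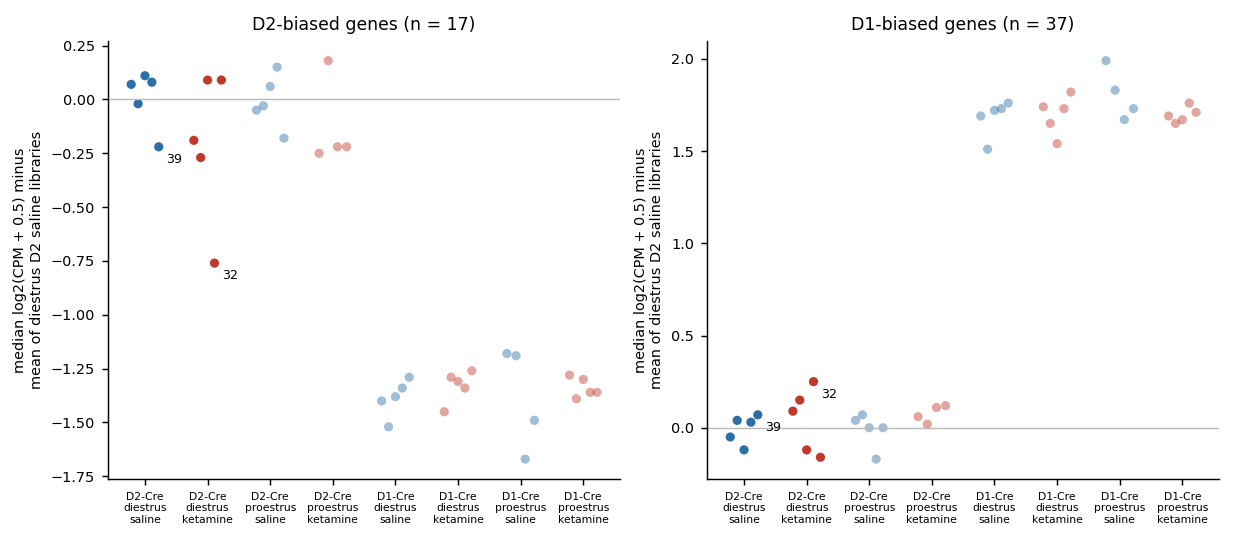
Each point is 1 library, with the median over the D2-biased (left, n = 17) or D1-biased (right, n = 37) genes of log2(CPM + 0.5) minus the mean of the diestrus D2 saline libraries on the vertical axis and the 8 groups on the horizontal axis (blue, saline, and red, ketamine). Library 32, at -0.76 for D2-biased genes, is below the other diestrus D2 libraries and above the D1-Cre libraries.

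Between treatments, 15 of the 17 D2-biased genes had a value below 0 for ketamine against saline, with a median log2 fold change of -0.10, and 1 had an unadjusted p under 0.05. For the 37 D1-biased genes the median was -0.02, and 2 had an unadjusted p under 0.05, beside 2.64% of all genes tested. The median over all genes tested was 0.00. The D2-biased median was -0.06 without library 39, -0.10 without library 32 and -0.19 without surrogate variables. For the D1-biased genes these values were -0.02, 0.01 and 0.04.

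The remaining library-to-library variation was described by principal components of the 9 deep libraries. The first, with 33.2% of the variance, ran from library 40 (score -21.8) to library 32 (score 36.6), both ketamine-treated, and the second, with 19.9%, set the saline library 7 (31.9) apart. Library 32 had 449.6 CPM of Adcy5, the main adenylyl cyclase of MSNs, where the other 9 libraries had 611.6 to 893.9. Rgs9, which encodes a striatal regulator of G-protein signalling, was at 207.1 CPM there and at 283.2 to 407.1 in the others. Gad1, which encodes an enzyme of GABA synthesis, did not follow, and was highest in library 32 (1213.2 CPM).

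Receptor genes also followed this axis. Gabra4 and Gabra2, encoding GABA-A receptor subunits that MSNs use heavily, were at 50.3 and 77.3 CPM in library 32, the lowest of the 10, and at 116.5 and 144.1 in library 40, the highest. Kit, a receptor tyrosine kinase gene, went the other way, with 40.5 CPM in library 32 and 10.9 to 32.9 in the rest. The nuclear receptor gene Esrrg was likewise at 24.3 CPM in library 32 and at 5.65 in library 7. Library 7 had the highest level of the astrocyte gene Gfap (59.6 CPM, with 17.7 to 43.3 in the others) and of the collagen gene Col3a1 (14.1 CPM, with 1.22 to 6.54). The 2 surrogate variables (covariates estimated from the counts) in the fit below follow library 39 and the axis from library 40 to library 32. The first was -0.94 in library 39 and 0.06 to 0.18 in the other 9. The second was 0.73 in library 32, -0.47 in library 40 and -0.28 in library 7. Neither set library 7 apart as the second component did. Saline library 23 had -0.18 on the second variable, close to library 7, but a score of -9.0 on that component.

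**Figure D2:**
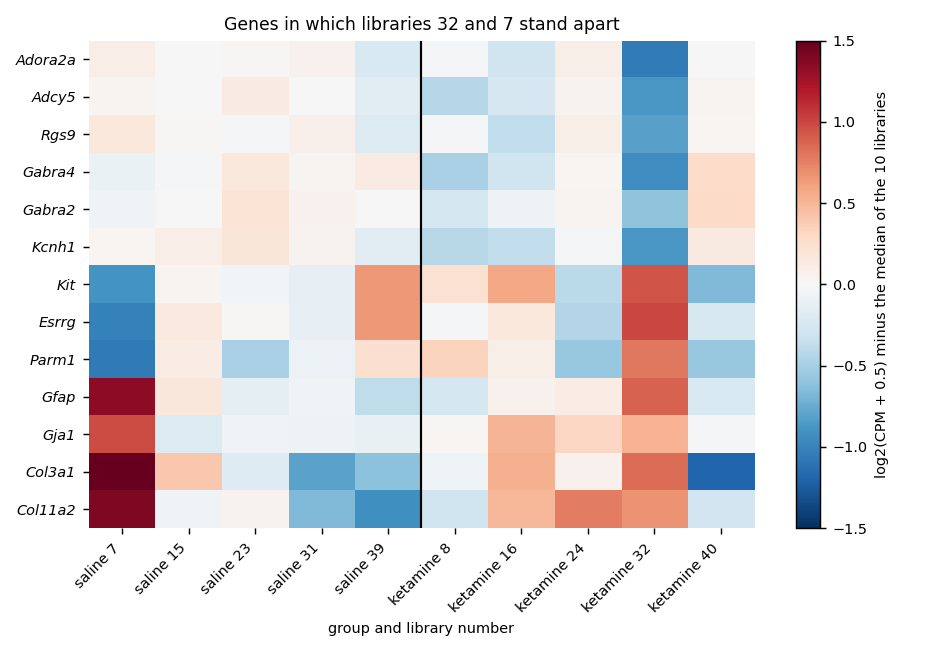
Colour gives log2(CPM + 0.5) minus the median of the 10 libraries for each gene (rows) in each library (columns, saline to the left of the line and ketamine to the right), for genes chosen after their values were seen. Library 32 has low Adora2a (457.0 CPM) and high Kit (40.5 CPM), and library 7 has high Gfap (59.6 CPM) and low Kit (10.9 CPM).

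Markers of other cell types could be read in part. The 4 paired astrocyte markers (Gfap, Gja1, S100b and Sox9) summed to 123.8 to 193.7 CPM in the ketamine libraries and to 124.4 to 239.5 in the saline ones. The 2 oligodendrocyte lineage markers used (Mog and Pdgfra) summed to 13.4 to 19.8 and 12 to 25.7 CPM, highest in saline library 7. The 2 microglial markers (Aif1 and Tmem119) did not exceed 5.35 CPM in any library, and the 2 vascular markers (Flt1 and Rgs5) did not exceed 14.7. The erythroid gene Alas2 was at 0 in 4 libraries and at most 0.228 CPM in the others. The 3 somatostatin interneuron genes (Sst, Nos1 and Chodl) summed to 91.9 to 190.1 and 118.6 to 173.7 CPM. In each of these sums the 2 treatments overlapped.

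The sum of the 3 pan-MSN genes (Gad1, Adcy5 and Rgs9) had lower values with ketamine. It was 2075.1, 2149.1, 2252.8, 1869.9 and 2183.1 CPM in libraries 8, 16, 24, 32 and 40. The saline libraries 7, 15, 23, 31 and 39 held 2203.4, 2308.6, 2370.0, 2294.7 and 2227.8 CPM. Only the ketamine library 24 reached into the saline range. The difference of -0.12 on the log2 scale had p = 0.0317 in a 2-sided exact permutation test over every assignment of the libraries, which did not pass adjustment over the 9 marker lists (adjusted p = 0.286, and 0.179 without library 39). By gene, Gad1 had mean levels of 1092.7 CPM with ketamine and 1088.1 with saline, so the lower sum came from Adcy5 (690.9 against 825.0 CPM) and Rgs9 (322.4 against 367.8 CPM), both lowest in library 32.

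The main comparison asked which polyribosome-bound mRNAs differed after repeated ketamine in D2-MSNs of diestrus females. No gene was called: 0 of 13455 genes (0%) had an adjusted p under 0.1 in edgeR's quasi-likelihood test with 2 surrogate variables (Benjamini-Hochberg). An unadjusted p under 0.05 was found for 355 (2.64%), with 162 genes (1.2% of those tested) higher and 193 (1.43%) lower with ketamine. DESeq2 with the same surrogate variables also called 0 genes, with 238 at an unadjusted p under 0.05. Without library 39, 0 of 13583 genes (0%) were called and 490 (3.61%) had an unadjusted p under 0.05. That second count was 635 without saline library 7, 562 without ketamine library 8 and 576 without ketamine library 24, again with no gene called.

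The median SE of a log2 fold change was 0.103, and for 12149 genes (90.3%) the 95% interval lay within a 2-fold difference in either direction. For 10276 genes (76.4%) it lay within 1.5-fold. Without library 39 these shares were 90.8% and 78.1%. The median SD of log2(CPM + 0.5) between libraries was 0.18 in the ketamine group and 0.16 in the saline group. It was 0.15 in the ketamine group without library 32 and 0.13 in the saline group without library 39. With groups of 5 and 4 libraries, the same kind of fit called 568 of 13397 genes between D2 and D1 in proestrus saline females.

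**Figure D3:**
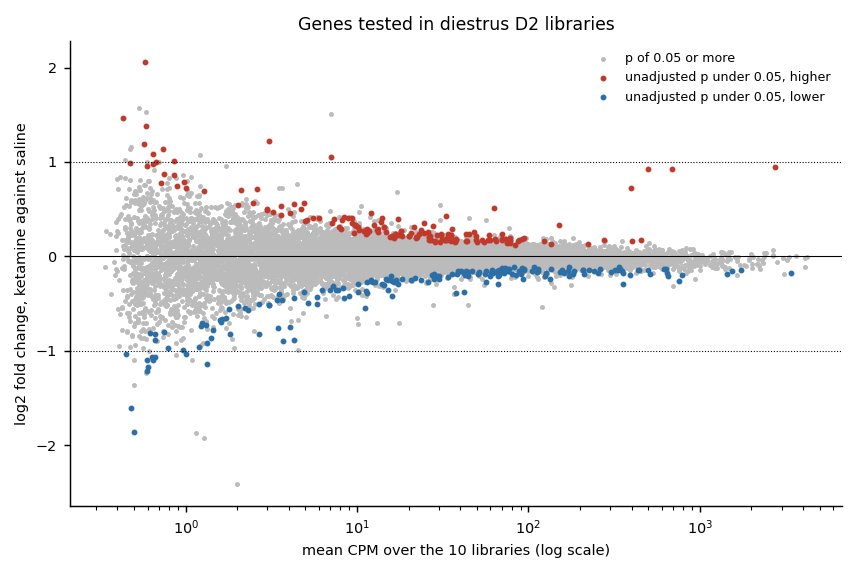
Each point is 1 of the 13455 genes tested, with its mean CPM over the 10 libraries (horizontal, log scale) and its log2 fold change for ketamine against saline (vertical); dotted lines mark 2-fold. Red (162 genes) and blue (193 genes) mark an unadjusted p under 0.05, and none passed an adjusted p under 0.1.

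The level of a gene in the 5 ketamine libraries did not overlap with that in the 5 saline libraries for 87 of 13455 genes (0.647%), 36 higher and 51 lower with ketamine. Among the 1528 genes with a symbol there were 6 of these. Napa, which encodes the SNARE disassembly factor alpha-SNAP, had lower values, with a log2 fold change of -0.11, beside Zfp644 (-0.11), Tmem94 (-0.09) and the matrix gene Prelp (-0.60). Prelp was at 0.844 CPM on average, where a single count in library 39 was worth 0.412 CPM. Gpr137b (0.46) and Enoph1 (0.09) had higher values. None of the 6 passed adjustment in edgeR's quasi-likelihood test, and Gpr137b alone had an unadjusted p under 0.05. With library 39 set aside, 168 of 13583 genes (1.24%) did not overlap.

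The 19 genes described next, 9 higher and 10 lower, are from the 10 in each direction with a symbol, a mean of at least 5 CPM and the lowest unadjusted p. None is called: every adjusted p in edgeR's quasi-likelihood test was 1. In none of the 19 did the 5 and 5 libraries separate. Fitted values are adjusted for the 2 surrogate variables and can therefore depart from the ratio of the mean levels. The first of these variables set library 39 apart, so the main fit already gave that library little weight. A similar value with and without library 39 is therefore no independent check on it.

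Among the genes with higher values was Ap3s1, encoding a subunit of the AP-3 adaptor that sorts cargo to lysosomes and synaptic vesicles, with a log2 fold change of 0.24 (SE 0.0717, unadjusted p = 0.00474). Its levels were 32.3, 36, 37.5, 34.6 and 37.4 CPM in ketamine libraries 8, 16, 24, 32 and 40, and 29.1, 30.9, 31.7, 31 and 39.5 CPM in saline libraries 7, 15, 23, 31 and 39. The overlap came from library 39 alone, the highest of the 10. Without it the log2 fold change was 0.23, and without surrogate variables it was 0.15 (unadjusted p = 0.0912). Denr, whose product takes part in the restart of translation on mRNAs with upstream reading frames, was at 48.7 to 57.5 CPM with ketamine and 42.4 to 49.5 with saline, with a log2 fold change of 0.21 (SE 0.0757).

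Gap43, encoding a growth-cone and presynaptic protein tied to axonal plasticity, was the most abundant of the higher genes. It was at 487.9, 476.8, 415.6, 482.3 and 521.1 CPM with ketamine and at 422.9, 426.7, 428.3, 424.5 and 441.4 CPM with saline. The saline values were tight (428.8 ± 7.37 CPM, SD, n = 5), 4 ketamine libraries lay above all of them, and library 24 lay below. The log2 fold change was 0.17 (SE 0.0671, unadjusted p = 0.0242), or 0.09 without ketamine library 40, the highest of them. The tetraspanin gene Tspan6 (19.4 ± 1.66 against 16.5 ± 1.39 CPM), the mitochondrial ribosomal protein gene Mrpl1 (26.3 ± 2.98 against 22.7 ± 1.27) and Cstb, encoding the cathepsin inhibitor cystatin B (45.2 ± 3.07 against 42.3 ± 2.69), had log2 fold changes of 0.27, 0.25 and 0.17. Without library 40 the values of Tspan6 and Mrpl1 were 0.18 and 0.16, and without surrogate variables that of Cstb was 0.10.

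The other 3 of the higher genes had lower values without surrogate variables. Carhsp1, which encodes an RNA-binding phosphoprotein, had mean levels of 71.5 ± 18 CPM with ketamine and 68.8 ± 7.92 with saline. Its log2 fold change was 0.24 in the fit, 0.05 without surrogate variables and 0.00 with blocks of 8 library numbers in their place. Crcp moved from 0.26 to 0.13 (and to 0.09 without library 40 or 0.17 without library 7) and Osgepl1, encoding an enzyme of mitochondrial tRNA modification, from 0.32 to 0.12 (0.09 with blocks). In Osgepl1 the highest level of all, 14.4 CPM, was that of saline library 39.

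Of the genes with lower values, Flrt2, encoding a synaptic and axonal adhesion protein, had the lowest p. It was at 49.1, 53.4, 57.3, 44 and 51.2 CPM in ketamine libraries 8, 16, 24, 32 and 40 and at 58.3, 71.2, 63.3, 59.7 and 56.8 CPM in saline libraries 7, 15, 23, 31 and 39. The groups overlapped only between ketamine library 24 and saline library 39. The log2 fold change was -0.27 (SE 0.0851, 95% interval -0.45 to -0.09, unadjusted p = 0.00684), and it was -0.27 without library 39. Lmf1, encoding a factor for the maturation of lipases, was at 16.8 to 18.6 CPM with ketamine and at 19.8 to 21.5 CPM in 4 saline libraries, but at 13.6 in library 39. Its log2 fold change was -0.24, with or without that library, and -0.16 without surrogate variables.

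A potassium channel gene and a glutamate receptor gene were also among the 10. Kcnh1, encoding the voltage-gated channel EAG1, was at 47.6, 49.3, 62.6, 34.5 and 70 CPM with ketamine and at 65.1, 68.2, 72.5, 66.5 and 56.8 CPM with saline, in the same library order. The log2 fold change was -0.21 (SE 0.0747, unadjusted p = 0.0145). Grm4, encoding the group III metabotropic receptor mGlu4, was at 73.6, 73.7, 93.4, 56.3 and 84.6 CPM with ketamine and at 89.4, 93, 102.8, 92.4 and 88.1 CPM with saline. Its log2 fold change was -0.19 (SE 0.0793, unadjusted p = 0.029). Both genes were lowest in library 32, the library with low Adora2a, and with that library left out their log2 fold changes were -0.26 and -0.22. They were -0.34 and -0.30 without surrogate variables, and that of Kcnh1 was -0.33 without library 40.

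The remaining lower genes were Zbed5 (-0.43), Tbc1d32 (-0.42), the endocytic adaptor gene Hip1r (-0.19), the nuclear pore gene Pom121 (-0.16), Prrc2a (-0.14) and Psmd2 (-0.14), which encodes a subunit of the proteasome's regulatory particle. In Psmd2, Pom121, Hip1r and Prrc2a the lowest level was that of ketamine library 40 (261.7, 87, 34.8 and 426.1 CPM). With library 40 left out their log2 fold changes were -0.04, -0.04, -0.07 and -0.08, while that of Tbc1d32 was -0.67. Without library 32 those of Psmd2 and Pom121 were -0.09 and -0.10. Without surrogate variables those of Psmd2, Pom121 and Hip1r were -0.06, -0.07 and -0.09.

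**Figure D4:**
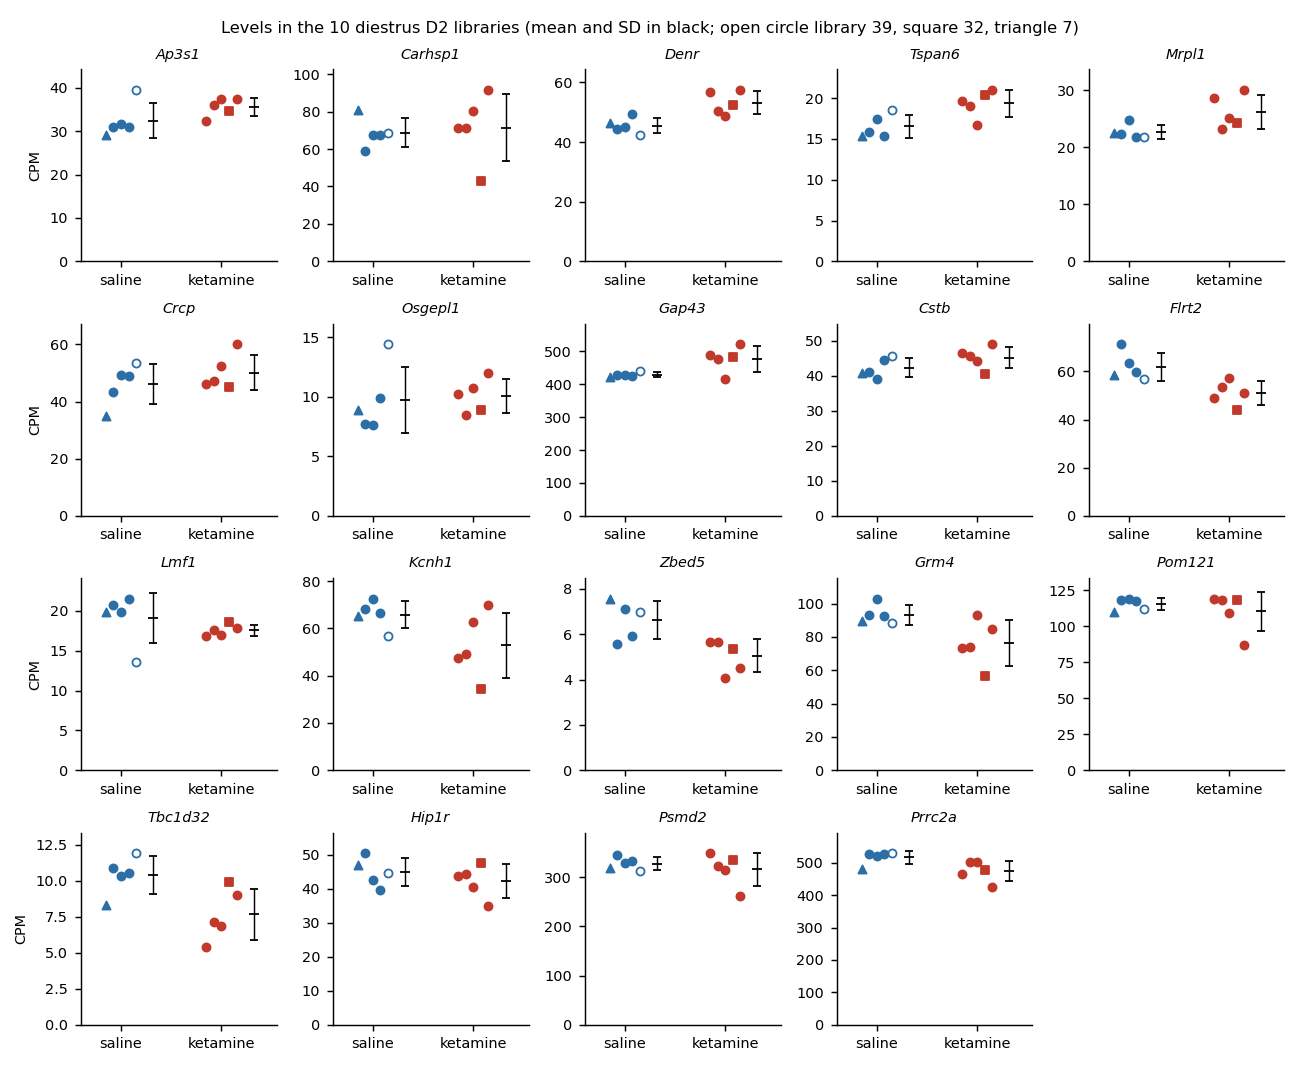
CPM in each of the 10 diestrus D2 libraries for the 19 genes described, with saline in blue and ketamine in red, the mean and SD in black, library 39 as an open circle, library 32 as a square and library 7 as a triangle. The groups overlap in every panel, in Ap3s1, Flrt2 and Lmf1 through library 39 (39.5, 56.8 and 13.6 CPM).

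Among genes without a symbol, 4 are given by identifier, the lowest p in each direction. ENSRNOG00000008548 was at 2.55 to 5.11 CPM with ketamine and at 5.36 to 6.15 CPM in 4 saline libraries, with 2.47 in library 39. Its log2 fold change was -0.89 (SE 0.163, unadjusted p = 0.000101), or -0.86 without library 39, -0.56 without surrogate variables and -0.51 with blocks of 8 library numbers. ENSRNOG00000010780 had a fitted log2 fold change of -0.38 but mean levels of 38 ± 14.1 and 37.4 ± 6.18 CPM, and a value of 0.00 without surrogate variables. ENSRNOG00000018992 had a fitted value of 0.35, and mean levels of 26.8 ± 5.92 and 22.4 ± 7.82 CPM. ENSRNOG00000039829 had a fitted value of 0.28 but mean levels of 23.4 ± 3.89 and 23.8 ± 6.52 CPM, and a value of 0.03 without surrogate variables.

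Lists of genes fitting the tissue and the drug were then read as counts of their tested members. None of the 119 tested members used was called, and 4 (3.36%, beside 2.64% of all genes tested) had an unadjusted p under 0.05: Grm4, Kcnh1, Psmd2 and Rptor, each with a lower value. Rptor encodes Raptor, the scaffold of mTOR complex 1. It was at 80.6 to 99 CPM with ketamine and 87.7 to 97.7 with saline, and had a log2 fold change of -0.12 (SE 0.0547, unadjusted p = 0.047), or -0.05 without surrogate variables. In the same list, the kinase gene Rps6kb1 (0.05), Gsk3b (0.00) and the initiation factor gene Eif4g1 (-0.07) had smaller values. Without surrogate variables these were -0.02, -0.14 and 0.00, so that of Gsk3b was then the lowest of the 4.

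For glutamate receptors, the only NMDA subunit gene that could be read was Grin2c, at 13.1 to 22.9 CPM with ketamine and 11.2 to 26.5 with saline. It had a log2 fold change of 0.01 and a 95% interval of -0.73 to 0.76. The value depended on single libraries: 0.39 (SE 0.137) without saline library 7, 0.17 without library 39 and -0.18 without saline library 15. The list of AMPA and kainate receptor subunits and their auxiliary proteins had 4 tested members, with a median of 0.06. Among them Grik2, a kainate receptor gene, had 0.12 (SE 0.0647), 0.07 without library 32 and 0.04 without surrogate variables. Grik1 and Cacng4 had 0.12 and 0.01, or 0.44 and -0.09 without surrogate variables. Cacng5 had -0.41 (SE 0.288), or -0.43 without them. The scaffold gene Dlg3 and the adhesion gene Nlgn3, both of the postsynaptic density, had values of -0.06 and 0.02, or -0.15 and -0.06 without surrogate variables.

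The 7 GABA receptor genes used ranged from -0.06 (Gabra4) to 0.10 (Gabrb2, SE 0.398, and -0.15 without library 7), with a median of -0.01. Gabbr1, encoding a subunit of the metabotropic GABA-B receptor and the most abundant of them, was at 1280.5 to 1515.9 CPM with ketamine and 1411.4 to 1510.6 with saline. Gabra4 was at -0.27 without surrogate variables, with levels from 50.3 to 116.5 CPM in the ketamine libraries and from 89.6 to 107.1 in the saline ones.

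Of 8 tested genes for dopamine, adenosine and cAMP signalling 7 had values below 0, with a median of -0.09. Adora2a had -0.08 (SE 0.132, 95% interval -0.38 to 0.21) and -0.21 without surrogate variables, and Adcy5 had -0.14 (SE 0.0724, unadjusted p = 0.0709) and -0.26. The adenosine A1 receptor gene Adora1 had -0.09, and the G-protein regulators Rgs9, Rgs4 and Rgs2 had -0.10, 0.00 and 0.04, or -0.20, 0.10 and -0.07 without surrogate variables. The low level of library 32 in Adora2a, Adcy5 and Rgs9 is given above, and without that library their values were -0.10, -0.19 and -0.12.

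The rats were killed shortly after a return to the context, and 3 immediate early genes could be read. Btg2, an antiproliferative gene induced by neuronal activity, was at 5.87, 6.06, 5.78, 4.72 and 7.05 CPM with ketamine and at 7.83, 6.85, 7.17, 9.14 and 7.41 CPM with saline, in the same library order. Only ketamine library 40 reached the saline range, and the log2 fold change was -0.30 (SE 0.141, 95% interval -0.60 to 0.01, unadjusted p = 0.0549). Sik1, encoding a salt-inducible kinase, was at 13.8 to 18.3 and 17.3 to 20.2 CPM (-0.17, unadjusted p = 0.14). Egr2 varied about 3-fold within the ketamine group, from 11.3 to 34.4 CPM, and had a value of -0.07 (SE 0.424), or -0.22 without library 7 and -0.02 without library 32.

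Some lists had most of their members on the side of higher values. Of the 10 nuclear genes of the respiratory chain and ATP synthase, 9 were above 0, with a median log2 fold change of 0.08, beside 0.00 over all genes. Atp5pf, an ATP synthase subunit gene, had 0.13 (SE 0.0653, unadjusted p = 0.0629), and the abundant Atp5f1b had 0.00. Of 9 tested proteasome and ubiquitin genes, 7 were above 0 (median 0.05), among them the ubiquitin-conjugating enzyme gene Ube2d1 (0.16, SE 0.0752). The 4 tested antigen processing and interferon genes were above 0 (median 0.13), from 0.02 for Mx2 to 0.37 for Psmb9. Mx2 was at -0.05 without library 32 and 0.19 without surrogate variables, Tap1 at 0.18 and 0.51 with and without them, and Psmb9 at 0.57 without library 39. Tap1, Tap2 and Psmb9 were all at under 5 CPM on average. Tfam, Opa1 and Tfb2m, the 3 nuclear genes of a list on mitochondrial DNA and nucleotides, lay between 0.02 and 0.08. Opa1 was at -0.05 without surrogate variables. Apart from Psmd2, no gene of these lists had an unadjusted p under 0.05.

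Medians of 0.00 or 0.01 were found for 4 further lists. The 6 cytosolic ribosomal protein genes had a median of 0.01, the 8 SNARE and vesicle genes 0.01 (-0.06 without library 32), the 5 tested potassium channel genes 0.00 and the 4 cytoskeletal genes 0.00. The 3 neuropeptide genes Vgf, Sst and Sstr2 lay between -0.15 (Vgf, or -0.07 without library 32 and -0.05 without surrogate variables) and 0.04, and the 4 heat shock and unfolded protein genes between -0.10 and 0.00. Of 14 collagen, laminin and integrin genes 11 were below 0 (median -0.09, and -0.06 without library 39), from -0.99 for Col3a1, whose highest level was in saline library 7, to 0.44 for Col23a1. The value of Col3a1 was -0.61 without library 39, -0.21 without library 7 and -0.46 without surrogate variables. The 3 somatostatin interneuron genes lay between -0.23 and -0.02. The aromatase gene Cyp19a1, which makes estradiol, had -0.82 (SE 0.425) at under 1 CPM on average. Hsd17b10, the other tested gene of the steroid list, had 0.10 (SE 0.0879) at 25.5 CPM. The lists of D1-MSN, cholinergic, parvalbumin and glutamatergic neuron markers and of the genes named by the study for ketamine had no member that could be paired, so they were not analysed here.

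Whether diestrus D2 libraries differed from the others in their response to ketamine was tested by interactions. For ketamine by cycle stage, over the diestrus and proestrus D2 libraries, 0 of 13881 genes (0%) were called and 248 (1.79%) had an unadjusted p under 0.05 in edgeR's quasi-likelihood test. That second count was 468 without ketamine library 8, 377 without the proestrus ketamine library 6 and 147 without surrogate variables. For ketamine by Cre line, over the diestrus D2 and D1 libraries, 0 of 13738 genes (0%) were called and 347 (2.53%) had an unadjusted p under 0.05. DESeq2 called 0 and 1 genes in these interactions. Within the other strata, the same fit called 0 of 13414 genes in proestrus D2 (0%), 3 of 13214 in diestrus D1 (0.0227%) and 1 of 13320 in proestrus D1 (0.00751%). The 3 genes of diestrus D1 had log2 fold changes of 0.11, 0.03 and 0.05 in diestrus D2, each with an unadjusted p above 0.5. The gene of proestrus D1, the collagen gene Col11a2, had -0.12 (SE 0.509) here, and 0.12 without library 39, 0.38 without library 7 and 0.06 without surrogate variables.

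The 19 genes above were set beside the other strata, which have control animals of their own. Their values had the same sign in proestrus D2 libraries in 13 of 19 and in diestrus D1 libraries in 10 of 19. Signs in proestrus D1 libraries were not counted. Lmf1 had 0.14 (SE 0.113) in proestrus D2, and its interaction with stage was -0.32 on the log2 scale (unadjusted p = 0.0199, adjusted p = 1). Flrt2 had -0.08 in proestrus D2 and 0.06 in diestrus D1, and its interaction with Cre line was -0.35 (unadjusted p = 0.00166, adjusted p = 1). That interaction covers diestrus only. In proestrus D1 Flrt2 had -0.21 (SE 0.0597, unadjusted p = 0.00349 and adjusted p = 0.505 in edgeR's quasi-likelihood test), on the same side as in diestrus D2. Gap43 and Carhsp1 had values on the same side in proestrus D2 (0.10 and 0.18), as did Grm4 (-0.12), Kcnh1 (-0.10) and Hip1r (-0.16). Of the 19, 3 had an interaction with stage and 7 an interaction with Cre line at an unadjusted p under 0.05, and none passed adjustment in edgeR. The genes were picked for their value in diestrus D2, so these interactions are no independent test of it.

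**Figure D5:**
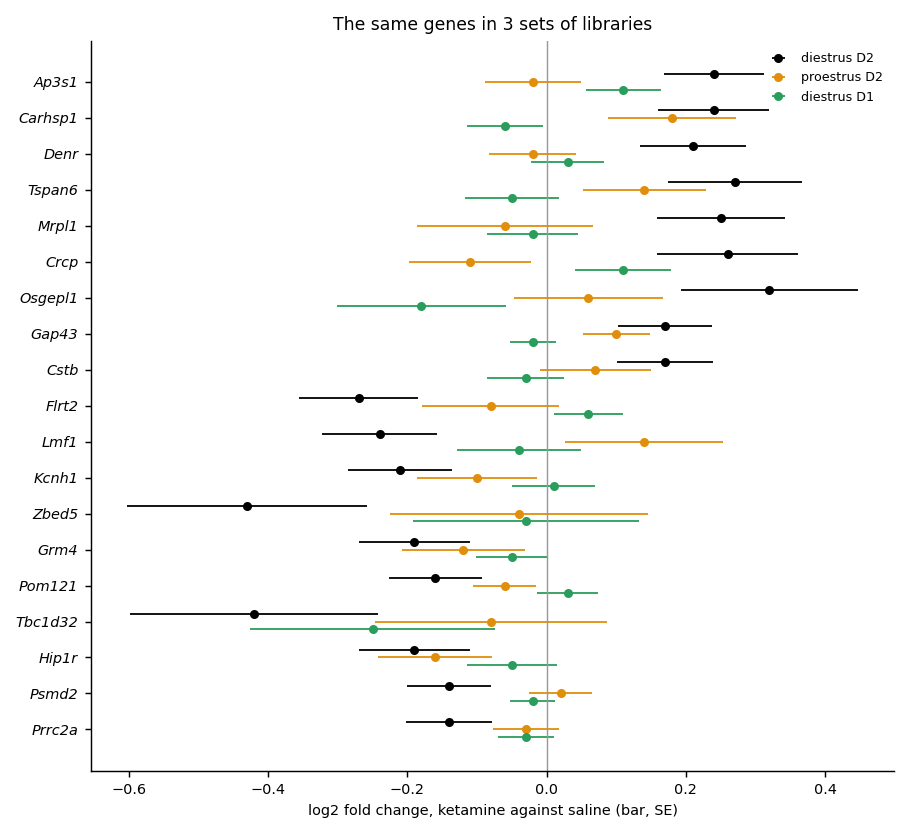
Log2 fold change for ketamine against saline with its SE (bars) for the same 19 genes (vertical axis) in diestrus D2 (black), proestrus D2 (orange) and diestrus D1 (green) libraries. The black points chose the genes, and the other points scatter around 0, with 13 of 19 orange and 10 of 19 green points on the same side as the black one.

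Across all genes tested in both, the log2 fold changes of diestrus D2 had a Pearson correlation of 0.04 with those of proestrus D2 (Spearman 0.09, 13283 genes) and of -0.01 with those of diestrus D1 (Spearman 0.00, 13122 genes). These describe genes, which are not independent replicates. The median size of a log2 fold change was 0.07 in diestrus D2, 0.07 in proestrus D2 and 0.05 in diestrus D1.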

How the data were processed

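Polyribosome-bound poly(A) mRNA was sequenced as stranded libraries, 1 per rat. Per the methods and the submitters' processing notes, the authors trimmed reads with fastp (0.23.4), checked them with FastQC (0.12.1), quantified transcripts with Salmon (1.10.2, sequence and GC bias corrections) on mRatBN7.2 and summed them per gene. The values the authors deposited are expected counts (estimated counts per gene), rounded and not normalized, for 23978 genes. Symbols came from the authors' tables and pair 1966 identifiers. Of 39 columns, 1 (a proestrus D1 saline library) was not used.

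Low genes were removed by filterByExpr (minimum count 10). After TMM scaling, edgeR (4.0.16) in R (4.3.3) tested ketamine against saline by quasi-likelihood with 2 surrogate variables from svaseq (sva 3.50.0) and Benjamini-Hochberg adjustment, within the 10 libraries. Calls were at an adjusted p under 0.1. CPM used the 38 libraries and a pseudocount of 0.5 on the log2 scale. Summed markers were compared by 2-sided exact permutation. The steps were tested on simulated counts. No library number occurs in more than 1 group, so the main fit has no pairing. Its p-values measure the spread between single rats that is left after the 2 surrogate variables. These variables were estimated from the same libraries and treated as known. Batches are not given in the labels.

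Members and lists were chosen with earlier results of these data known. Named genes were the 10 lowest p in each direction with a symbol and at least 5 CPM, up to 2 identifiers in each direction without one, list members at an unadjusted p under 0.05, and all members of the D2-MSN, NMDA receptor and study-named lists. Some genes that the rule or a list holds are not reported here. Other genes were chosen after their values were seen. Alternatives were 0, 1 or the num.sv number of surrogate variables, DESeq2 (1.42.0), other filters, size factors and thresholds. Others were a model of all libraries used, blocks of 8 library numbers in place of surrogate variables, and each library left out. Columns of the authors' own comparisons in their tables were not used.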

Additional observations from a re-analysis of the deposited data

Results flagged for a closer look

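In 76 sets of 5 libraries (26 named genes, 9 marker sums, 2 sets of biased genes and the total count, in each treatment), 12 had an end library farther from the rest than Dixon's 95% critical value allows, where chance gives about 1 in 20. For total counts these were ketamine library 40 (16175294) and saline library 39 (2396517). In the ketamine group the only gene was Pom121, with 87 CPM in library 40. In the saline group library 39 stood apart for Ap3s1 (39.5 CPM), Lmf1 (13.6 CPM), ENSRNOG00000039829 (35.4 CPM) and ENSRNOG00000008548 (2.47 CPM). Library 7 stood apart for Prrc2a (481.8 CPM), the summed astrocyte markers (239.5 CPM) and the summed oligodendrocyte lineage markers (25.7 CPM). Library 23 stood apart for Mrpl1 (24.9 CPM) and for the single choroid gene Kl (10.9 CPM).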

How the results depend on the processing

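The count of 0 called genes held in 21 of 24 other fits, including those with each library left out (0 to 0), and at a threshold of 0.05. The exceptions were added after seeing the data: 1 gene without libraries 7, 32 and 39 (ENSRNOG00000042702, log2 fold change -0.34, with 1242 of 13564 genes at an unadjusted p under 0.05), and 1 or 3 genes in DESeq2 with no filter and 2 or 3 surrogate variables. Of these, ENSRNOG00000000768 had counts in 2 libraries only, ENSRNOG00000011040 was near 0 in 3 saline libraries, and ENSRNOG00000049911 (69.9 against 56 CPM) had 0.57 (adjusted p = 0.0106), beside 0.51 (adjusted p = 1) in edgeR. Genes at an unadjusted p under 0.05 ranged from 245 to 635 with 1 library left out and were 735 with no filter. They were 611 in the model of the 38 libraries used (the planned model of all 39 could not be run). With blocks of 8 consecutive library numbers in place of surrogate variables they were 540, and 0 genes were called. Each such block paired 1 ketamine with 1 saline library. Both interactions called 0 genes without surrogate variables and with each library left out (0 to 0). DESeq2 called 1 gene for ketamine by Cre line (ENSRNOG00000022101, 0.86, adjusted p = 0.0941). Over 26 named genes, 617 of 623 values kept their sign and none passed the threshold. Most of these genes were chosen by their p in the main fit of nearly the same libraries, so this is no independent check. Carhsp1 and ENSRNOG00000039829 kept their sign but were at 0.00 with blocks. The sign changed in ENSRNOG00000010780, at 0.00 in edgeR and 0.01 in DESeq2 without surrogate variables. It also changed in Grin2c, from -0.18 to 0.46 with 1 library left out (negative without 15, 23, 24 or 31: -0.18, -0.04, -0.05 and -0.11). Without library 39 the log2 difference of the summed somatostatin markers turned from -0.03 to 0.02 and that of the microglial markers from -0.02 to 0.25. The cause was not tested. At the depth of library 39, genes near 1 CPM rest on a few counts. The labels do not say that such a block shares anything, and no library number occurs in more than 1 group.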

Other observations

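The largest fitted differences among abundant genes came from a quartet without symbols, chosen after its values were seen. Of the genes with a mean of at least 100 CPM, 5 had a log2 fold change of at least 0.5 in size, and 4 of them were higher with ketamine (0.72 to 0.94, unadjusted p from 0.0239 to 0.0489, adjusted p of 1 in edgeR's quasi-likelihood test). The most abundant, ENSRNOG00000065867, was at 2187.4, 3888.3, 2398.0, 3239.6 and 6260.4 CPM in ketamine libraries 8, 16, 24, 32 and 40, and at 1197.0, 2534.0, 2265.2, 1994.7 and 1679.3 CPM in saline libraries 7, 15, 23, 31 and 39. The groups overlapped through saline libraries 15 and 23. Without ketamine library 40 the values of the 4 genes were 0.27 to 0.38. Together the 4 genes took 0.963% of the counts of library 40 and 0.198% of those of library 7, and 10.5% in library 33, a proestrus D1 saline library outside this comparison.

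ENSRNOG00000011040, also chosen after its values were seen, was present in some rats and near 0 in others. Over the 38 libraries it was under 1 CPM in 24 (at most 0.441 CPM) and between 7.15 and 27 CPM in the other 14. In the diestrus D2 libraries it was at 7.15 to 13.2 CPM in 4 of 5 ketamine libraries and at 0.304 in library 40, and at 11.5 and 14.4 CPM in saline libraries 7 and 39, with at most 0.0476 in libraries 15, 23 and 31. With 3 of 5 saline libraries at or near 0, its fitted fold changes are not read as values. It is among the 3 genes that DESeq2 called with no filter and 3 surrogate variables (adjusted p = 0.000852).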
